A study of Homo sapiens with 6 samples.

Results

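The long non-coding RNAs (lncRNAs) encoded around MYC at chromosome band 8q24 were compared between cisplatin-resistant and cisplatin-sensitive lung adenocarcinoma cells. The members were PVT1, CCAT1, CASC8, CASC11, CASC19, CASC21, PCAT1 and MSTRG.48662, an unannotated transcript assembled by the authors. Their transcripts were found by gene name or ID, with no threshold on a value, although earlier results of these data were known when the genes were chosen. These 8 genes stood among 30061 gene IDs, and their 33 transcripts stood among 81818. A549/DDP is a cisplatin-resistant derivative of A549, an established human lung adenocarcinoma line. Each line was sequenced in 3 libraries at passages 6 to 8, after depletion of rRNA. Cisplatin (DDP) at 1 µg/mL was present in the A549/DDP cultures and absent from the A549 cultures, so an effect of the drug present in the medium cannot be told apart from resistance. Each group is 1 line, and the labels do not say that its libraries came from separate cultures, so p values measure only the spread between these libraries.

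MYC encodes a transcription factor that drives growth and proliferation, and it is flanked by stretches of the genome with few coding genes, many enhancers and many lncRNA genes. PVT1 lies downstream of MYC on the same strand, hosts several miRNA genes, and has been described both as a partner that stabilizes MYC protein and as a locus whose promoter competes with that of MYC for enhancers. CCAT1 lies upstream of MYC in a region that acts as a super-enhancer in colorectal cancer cells, and its long isoform has been tied to the looping of that enhancer to the MYC promoter. CASC8, CASC19, CASC21, PCAT1 and CASC11 are lncRNAs of the same upstream side, and CASC11 starts beside the MYC promoter on the opposite strand.

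The values are FPKM of single transcripts, that is, fragments scaled to transcript length and to the mapped fragments of a library. A gene sum adds the FPKM of every transcript listed under a gene ID. Lines were compared with limma on log2(FPKM + 1), a scale that understates the change of low transcripts, and a feature was called at an adjusted p under 0.01 with an absolute log2 fold change over 1. Features were tested where at least 3 of the 6 libraries reached 0.5 FPKM. All fold changes are A549/DDP over A549. The total FPKM per library was 65142 to 68665 in A549/DDP cells and 58042 to 62589 in A549 cells. Read numbers are not part of the tables, so the depth behind a value is unknown. An exact 0 therefore need not mean that a gene was silent. NOLC1, which encodes a nucleolar protein of dividing cells, was listed at 0 in every library. The listed transcripts of coding genes were expected to be mostly non-coding, however, so its 0 is not taken to stand for the mRNA. Over the tested gene sums the median log2 fold change was 0.17, and it was 0.02 after median-ratio scaling and 0.01 after quantile normalization, so the values below stand against a general shift of that size. The first principal component (39.8% of the variance) separated the lines, and the second (18.2%) set A549 replicate 2 apart from the other 5 libraries.

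Positions are on GRCh38 and come from the deposited tables, which give the span of a transcript but not its exons. The CCAT1 transcript spanned chr8:127207866-127219088 on the minus strand, 528 kb before the start of MYC. That of CASC19 spanned chr8:127185635-127203222 and MSTRG.48662 spanned chr8:127222951-127225311, both on the minus strand as well, at 550 and 512 kb before MYC. The names at this place depend on the annotation. GENCODE 44 draws CASC19 as a gene of 89 transcripts over chr8:127072694-127227541, which covers all of these spans, and it holds neither CCAT1 nor CASC21 as a gene name. CCAT1 (ENSG00000247844) and CASC21 (ENSG00000253929) were therefore assigned by the RefSeq spans that contain their transcripts. Exons of GENCODE 44 on the same strand covered 2131 of the 11223 bases of the CCAT1 span, 5994 of the 17588 bases of the CASC19 span and 944 of the 2361 bases of the MSTRG.48662 span, so each span holds exonic and intronic bases.

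Of the members upstream of MYC, CCAT1 and MSTRG.48662 were called lower in A549/DDP cells as gene sums, whereas PVT1 downstream of MYC was not called. Over all members, 20 transcripts of 33 were tested and 1 was called lower, where 0.198% of all 20663 tested transcripts were called lower and 0.552% were called in either direction. Of these 20, 7 had every A549/DDP library below every A549 library, where 8.91% of all tested transcripts did. Among gene sums, 4 of the 8 members were tested and 2 were called lower, where 0.963% of 10591 gene sums were. All 4 lay lower in every A549/DDP library, where 10.4% of all gene sums did. MSTRG.48662 met the filter through the A549 libraries alone, which set its direction. The median log2 fold change over the 20 transcripts was -0.31, beside 0.14 over all tested transcripts. With 17 of the 20 from PVT1, whose spans overlap, these counts are not those of independent features.

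CCAT1 was lower in A549/DDP cells, where its mean was 0.208 times that of A549 cells. It was at 3.02, 2.03 and 3.42 FPKM in the 3 A549/DDP libraries, against 12.4, 15.3 and 13.0 FPKM in the 3 A549 libraries. Every A549/DDP library lay below every A549 library, and the spread within each line was small beside the distance between them. The means were 2.82 ± 0.715 FPKM in A549/DDP cells and 13.6 ± 1.54 FPKM in A549 cells (SD, n = 3 each). As a gene sum CCAT1 had a log2 fold change of -1.94 (SE 0.25, adjusted p = 0.00339, limma) and was called lower. The same values tested among all transcripts, a longer list with another trend of the variance, gave an adjusted p of 0.0151, above the threshold. The gene sum was no longer called without any 1 of the 6 libraries, where the adjusted p was 0.0122 to 0.0183 and the log2 fold change -2.05 to -1.78, nor with the replicate number as a block (adjusted p = 0.0155). In bulk RNA, fewer cells that express a gene and less RNA per cell cannot be told apart.

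MSTRG.48662 was near 0 in A549/DDP cells and at several FPKM in A549 cells. It was listed at 0, 0.0467 and 0.130 FPKM in the A549/DDP libraries, against 6.84, 7.04 and 3.11 FPKM in the A549 libraries. The groups did not overlap, and A549 replicate 3 held less than the other A549 libraries. The log2 fold change was -2.59 (SE 0.30), called lower as a gene sum (adjusted p = 0.00247, limma) and as a transcript (adjusted p = 0.00883). MSTRG.48662 met the filter of 0.5 FPKM through the A549 libraries alone, so its direction was set once it was tested. The test therefore describes the size of the difference and is no separate evidence of its direction. The size rests on the pseudocount, since the log2 fold change was -5.17 with a pseudocount of 0.1 and -6.95 with 0.01, where the gene sum was no longer called (adjusted p = 0.0153). Without any 1 library the gene sum stayed called only where A549 replicate 2 or 3 was left out (adjusted p = 0.00978 and 0.00365), and without A549/DDP replicate 1, 2 or 3 or A549 replicate 1 the adjusted p was 0.0114 to 0.0171. As a transcript it was not called without any 1 library (adjusted p 0.0186 to 0.0455), nor with the replicate number as a block (adjusted p = 0.0438). MSTRG.48662 has no annotated name, and its span ends 3.86 kb before the first base of the CCAT1 transcript in the direction of transcription.

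CASC19 was at 0.894, 0.752 and 1.46 FPKM in the A549/DDP libraries, against 3.82, 3.22 and 1.61 FPKM in the A549 libraries. The groups did not overlap, but A549/DDP replicate 3 and A549 replicate 3 lay close together. Its log2 fold change as a gene sum was -0.90 (SE 0.30, adjusted p = 0.0932, limma), which was not called. Because GENCODE 44 gives the name CASC19 to the whole stretch, the minus-strand transcripts inside that span were also summed, a choice made after the data were seen. This sum of 5 transcripts was 4.23, 3.03 and 5.51 FPKM in the A549/DDP libraries, against 25.0, 27.0 and 19.5 FPKM in the A549 libraries. It had a log2 fold change of -2.25 (SE 0.27, adjusted p = 0.00267, limma), so what is reported for CASC19 depends on which annotation draws the gene. CCAT1 was the largest part of this sum in every library, and the sum therefore repeats its values.

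The only other tested transcript within 1 Mb of MYC was MSTRG.48640, at chr8:127140546-127141779 on the minus strand and also inside the GENCODE 44 span of CASC19. It was at 0.315, 0.200 and 0.50 FPKM in the A549/DDP libraries, against 1.96, 1.48 and 1.74 FPKM in the A549 libraries. These groups did not overlap, and the log2 fold change of -1.03 (SE 0.20) missed the threshold (adjusted p = 0.0192 as a gene sum, limma). All 4 tested transcripts on the upstream side of MYC were lower in every A549/DDP library, as were 8.91% of all tested transcripts. Of them 1 was called lower as a transcript and 2 as gene sums, where 0.198% of tested transcripts and 0.963% of gene sums were. The 4 lie on 1 strand inside the GENCODE 44 span of CASC19, so they are not independent features. MSTRG.48662 met the filter through the A549 libraries alone, and the upstream transcripts that failed it did not separate the lines. MSTRG.48640 also owed its test to the A549 libraries, since only A549/DDP replicate 3 just reached 0.5 FPKM in the resistant line.

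**Figure D1:**
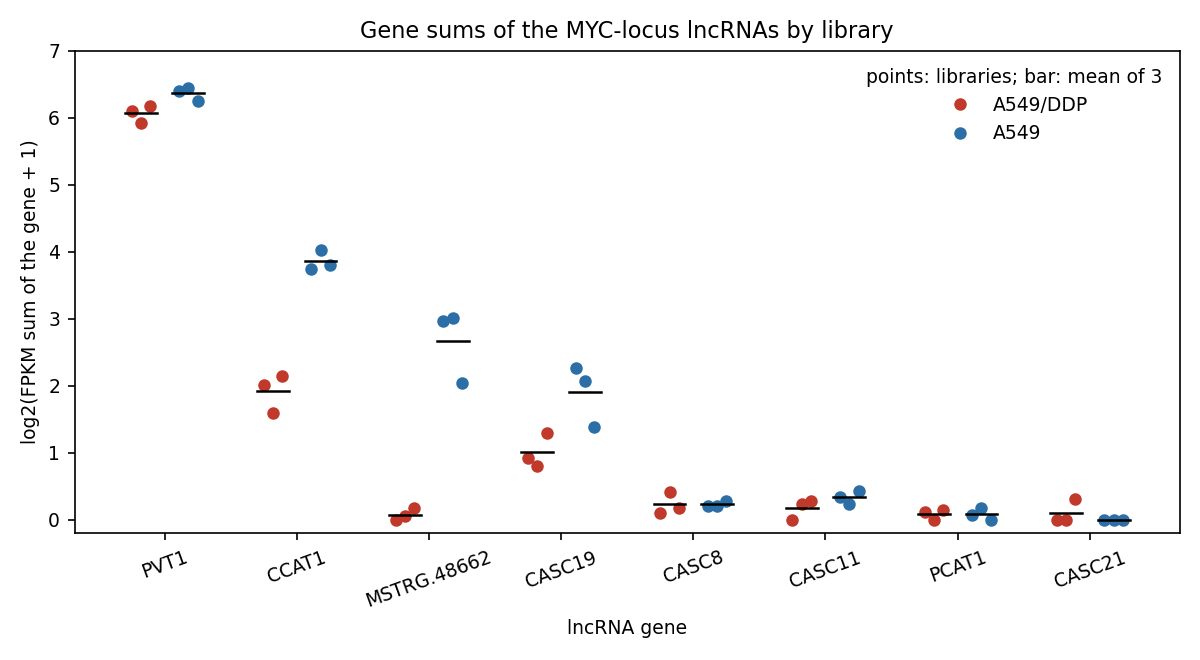
Gene sums of the 8 members on the log2(FPKM + 1) scale (y axis), with 1 point for each of 3 A549/DDP libraries (left, red) and 3 A549 libraries (right, blue) and a bar at the mean. PVT1, CCAT1, MSTRG.48662 and CASC19 lie lower in every A549/DDP library, while the other members are near 0 in both lines.

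PVT1 (ENSG00000249859) had by far the highest gene sum of the members, added over 20 listed transcripts. Its gene sum was 67.7, 59.8 and 71.3 FPKM in the A549/DDP libraries, against 83.1, 85.8 and 75.3 FPKM in the A549 libraries. The 3 A549/DDP libraries lay below the 3 A549 libraries, yet the gap between the nearest of them was narrower than the range within either line. The means were 66.3 ± 5.91 FPKM in A549/DDP cells and 81.4 ± 5.45 FPKM in A549 cells (SD, n = 3 each). The log2 fold change was -0.29 (SE 0.20, 95% CI -0.76 to 0.17, adjusted p = 0.389, limma), and no change was called. That interval excludes a fall of the size seen for CCAT1. Scaling altered the estimate, which was -0.17 after quantile normalization and -0.54 after median-ratio scaling (adjusted p = 0.618 and 0.126). Without A549 replicate 2, the library that stands apart, the log2 fold change of the gene sum was -0.26 for PVT1, -1.86 for CCAT1, -2.42 for MSTRG.48662 and -0.82 for CASC19. In each library PVT1 stood at percentile 99.6 to 99.7 of the gene sums above 0 in at least 1 library, while CCAT1 stood at percentiles 71.4 to 79.3 in A549/DDP libraries and 95.6 to 96.3 in A549 libraries. These ranks compare a sum of 20 transcripts with 1 transcript of CCAT1. The highest single PVT1 transcript had a mean of 11.9 FPKM over the 6 libraries, and CCAT1 one of 8.19 FPKM.

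The ratio of 2 members within a library is little affected by how libraries were scaled. CCAT1 amounted to 4.46%, 3.40% and 4.80% of the PVT1 sum in the A549/DDP libraries, against 14.9%, 17.8% and 17.3% in the A549 libraries. These shares did not overlap. On the log2(FPKM + 1) scale the difference between CCAT1 and PVT1 was -1.65 in A549/DDP relative to A549 cells (two-sided exact permutation p = 0.1, the smallest that 3 against 3 libraries can give, or 0.125 when adjusted over the 5 pairs compared). MSTRG.48662 against PVT1 differed by -2.30 and CASC19 against PVT1 by -0.61, both without overlap and with the same p. MSTRG.48662 amounted to 0%, 2.30% and 3.79% of CCAT1 in the A549/DDP libraries, against 55.3%, 46.0% and 23.9% in the A549 libraries, which did not overlap. On the log2(FPKM + 1) scale, which compresses values this low, the same pair differed by -0.65 with overlapping libraries (exact permutation p = 0.2, also after adjustment). CASC19 amounted to 29.6%, 37.0% and 42.7% of CCAT1 in A549/DDP cells, against 30.9%, 21.1% and 12.4% in A549 cells. Those percentages overlap, whereas on the log2(FPKM + 1) scale the libraries of this pair did not (difference 1.04, exact permutation p = 0.1).

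The tables list 20 PVT1 transcripts, all above 0 in at least 1 library, of which 17 were tested and none was called in either direction. Over all tested transcripts 0.552% were called, so none in 17 is near that share and does not show that these transcripts were unchanged. By limma, 3 of the 17 had an unadjusted p under 0.05, as did 21.7% of all tested transcripts. Of the 17, 9 had a negative and 8 a positive log2 fold change, between -0.78 and 0.61, with a median of -0.10. In 4 transcripts every A549/DDP library lay below every A549 library, in 2 every A549/DDP library lay above, and in 11 the lines overlapped. Of the 2 that lay above, chr8:127854728-127890741 met the filter through the A549/DDP libraries alone, which set its direction. Over all tested transcripts 8.91% lay below and 18.9% above in this way. The 6 most abundant transcripts made up 64.7% to 68.9% of the PVT1 sum in A549/DDP libraries and 68.5% to 73.5% in A549 libraries.

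The transcript of highest mean level, chr8:127989261-128096656, has the span of PVT1-214 in GENCODE 44. It was at 12.4, 10.6 and 11.3 FPKM in the A549/DDP libraries, against 11.7, 14.2 and 11.1 FPKM in the A549 libraries. The lines overlapped, with a log2 fold change of -0.10 (SE 0.27, adjusted p = 0.862, limma).

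Next came chr8:128009658-128101097, which matches no annotated span. It was at 7.95, 6.50 and 10.1 FPKM in the A549/DDP libraries, against 12.9, 13.8 and 17.4 FPKM in the A549 libraries. The groups did not overlap, and the log2 fold change of -0.78 (SE 0.29) was the lowest among the tested PVT1 transcripts, but it did not pass (unadjusted p = 0.0289, adjusted p = 0.176, limma).

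The transcript at chr8:127890646-127932695 was at 7.53, 8.42 and 8.08 FPKM in the A549/DDP libraries, against 11.8, 12.7 and 8.80 FPKM in the A549 libraries. It was lower in every A549/DDP library, although A549 replicate 3 lay close to them, with a log2 fold change of -0.42 (SE 0.28, adjusted p = 0.428, limma). The transcript with the span of PVT1-212, chr8:127794557-127940454, was at 8.29, 7.33 and 9.37 FPKM in the A549/DDP libraries, against 10.5, 12.9 and 8.26 FPKM in the A549 libraries. Here the lines overlapped, and the log2 fold change was -0.30 (SE 0.29, adjusted p = 0.596, limma).

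PVT1-203, chr8:127890628-128101253, was at 4.09, 3.72 and 3.90 FPKM in the A549/DDP libraries, against 4.30, 6.00 and 5.19 FPKM in the A549 libraries. The groups were apart by a small gap (log2 fold change -0.32, SE 0.26, adjusted p = 0.512, limma). The sixth, chr8:127795820-127890960, was at 3.61, 3.47 and 6.44 FPKM in the A549/DDP libraries, against 5.63, 3.37 and 3.74 FPKM in the A549 libraries. It overlapped throughout and its log2 fold change of 0.05 (SE 0.32, adjusted p = 0.940, limma) turned negative after median-ratio scaling.

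Both transcripts that lay higher in every A549/DDP library were of low level, and they are named because of their values. The first, chr8:127796033-127890983, was at 2.65, 1.76 and 2.17 FPKM in the A549/DDP libraries, against 1.26, 1.45 and 0.638 FPKM in the A549 libraries. Its log2 fold change was 0.61 (SE 0.26, adjusted p = 0.226, limma). The other, chr8:127854728-127890741, was at 0.565, 0.829 and 0.824 FPKM in the A549/DDP libraries, against 0.207, 0.191 and 0.486 FPKM in the A549 libraries, and had a log2 fold change of 0.43 (SE 0.17, adjusted p = 0.208, limma). Neither passed the test. The transcript chr8:127854728-127890741 met the filter of 0.5 FPKM through the A549/DDP libraries alone, which set its direction.

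The other 12 PVT1 transcripts were each at a mean of 4.27 FPKM or less over the 6 libraries. Spans of PVT1 transcripts overlap widely, and 2 of them share the span chr8:127794557-127855319, so the division of fragments between them is an estimate. One of this pair was listed at 0.881, 1.6e-05 and 1e-06 FPKM in the A549/DDP libraries, against 0.444, 0.000342 and 1.68 FPKM in the A549 libraries. In this transcript the swings between libraries of 1 line were larger than the difference between the lines.

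**Figure D2:**
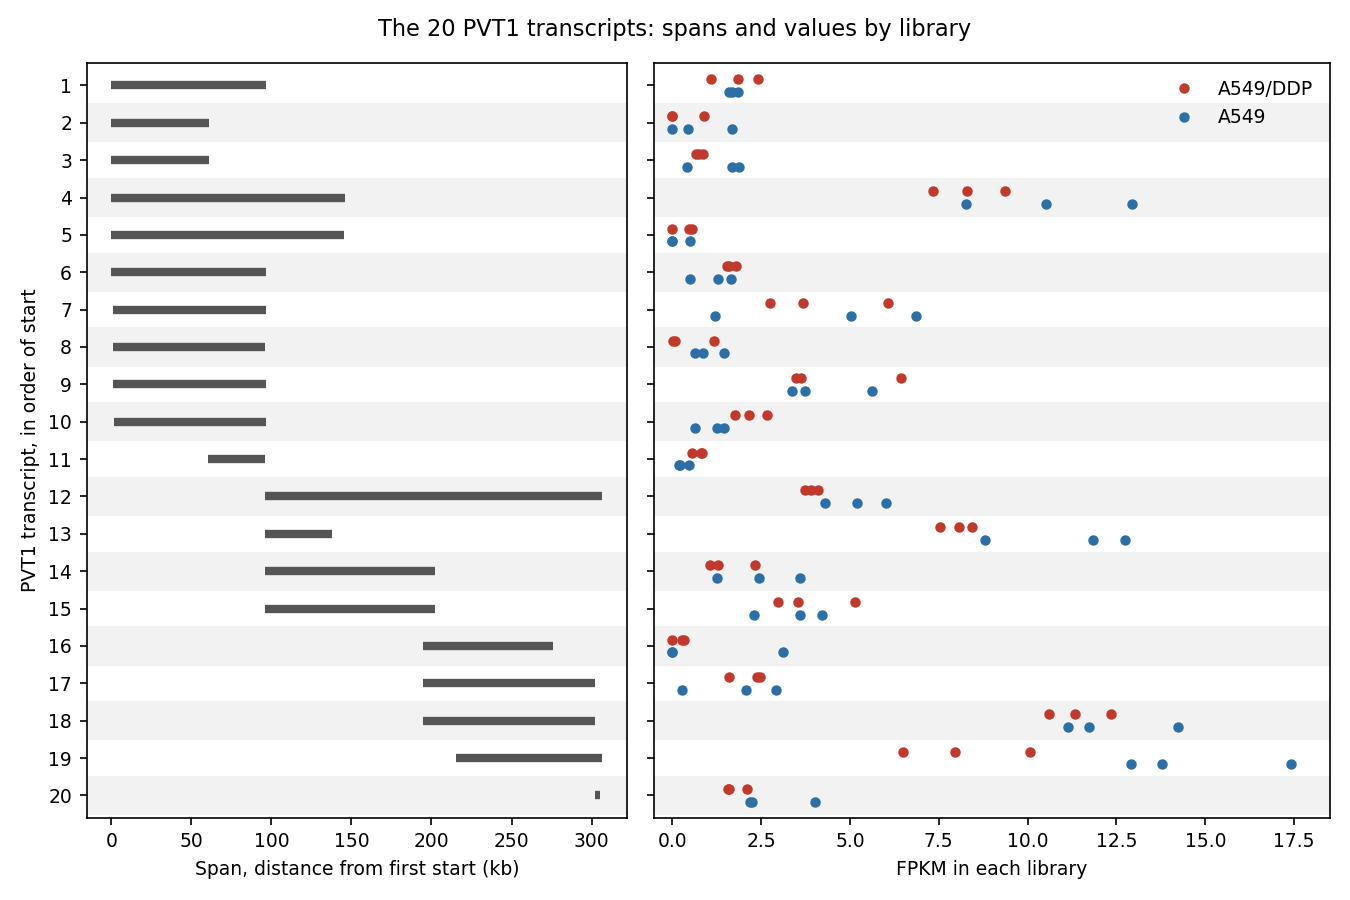
The 20 PVT1 transcripts from top to bottom in order of start, with their spans in kb from the first PVT1 start (left panel) and their FPKM in each of 3 A549/DDP libraries (red, upper points) and 3 A549 libraries (blue, lower points) in the right panel. Only the points of transcripts 12, 13, 19 and 20 lie lower, and only those of transcripts 10 and 11 higher, in every A549/DDP library, each by a margin that did not pass the test.

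PVT1 transcripts start at several places, and starts within 10 kb of the one before were put in 1 group, which gave 6 groups. The group at the 5′ end held 10 transcripts and summed to 26.3, 21.2 and 25.9 FPKM in the A549/DDP libraries, against 31.0, 27.9 and 20.1 FPKM in the A549 libraries. It took 36.9% ± 1.72 of the PVT1 sum in A549/DDP cells and 32.2% ± 5.27 in A549 cells (SD, n = 3 each), with overlapping libraries. The second large group, 4 transcripts that start 96.1 kb downstream, summed to 16.2, 16.4 and 19.5 FPKM in the A549/DDP libraries, against 22.2, 22.3 and 21.8 FPKM in the A549 libraries. Its level did not overlap between the lines, yet its share of the sum did (26.2% ± 1.96 in A549/DDP cells and 27.2% ± 1.56 in A549 cells). The single transcript that starts 215 kb downstream took 12.2% ± 1.68 of the sum in A549/DDP cells and 18.2% ± 4.24 in A549 cells, a difference of -6.00 percentage points without overlap (two-sided exact permutation p = 0.1, or 0.3 adjusted over the 6 groups). The single transcript that starts 60.2 kb downstream took 1.12% ± 0.277 of the sum in A549/DDP cells and 0.372% ± 0.237 in A549 cells, again without overlap and with the same p. In the remaining groups, at 195 and 302 kb, the shares overlapped.

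**Figure D3:**
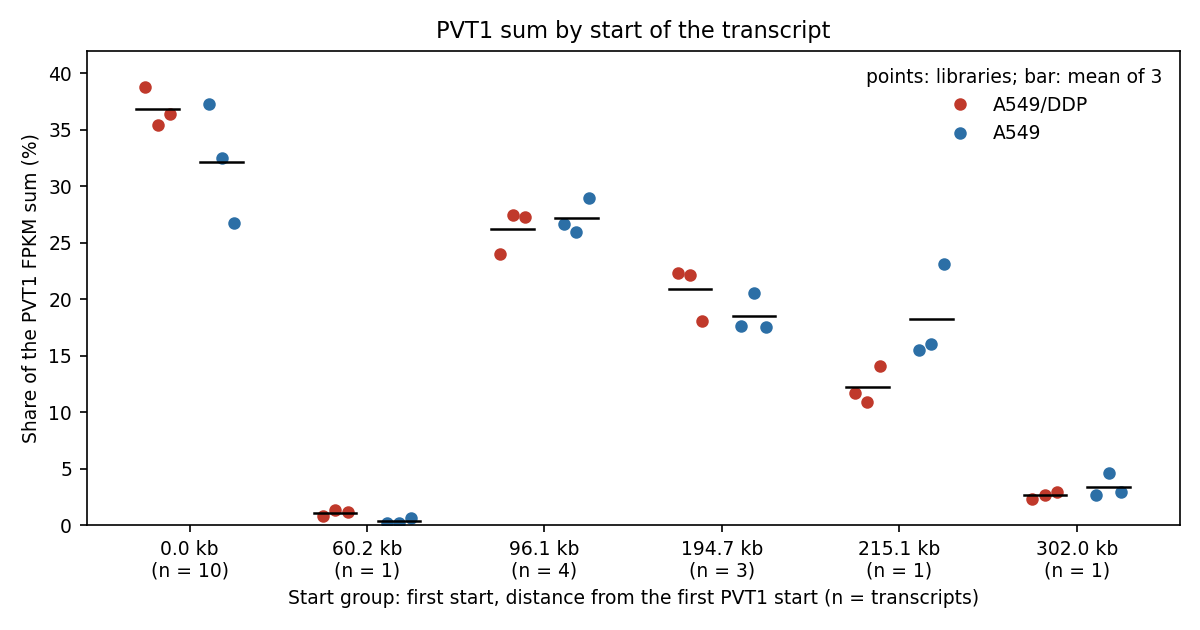
Share of the PVT1 FPKM sum (y axis, %) for 6 groups of transcripts by start, labelled by the distance of the first start of the group from the first PVT1 start and by the number of transcripts, in 3 A549/DDP libraries (left, red) and 3 A549 libraries (right, blue) with a bar at the mean. The shares separate between the lines only for the transcripts at 60.2 and 215 kb.

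Several of the miRNA genes hosted by PVT1 lie inside the listed spans. MIR1204, at chr8:127795962-127796028, lies inside the spans of 9 transcripts, which summed to a mean of 22.3 FPKM in A549/DDP cells and 25.2 FPKM in A549 cells. MIR1207, at chr8:128049152-128049238, lies inside 5 spans with a mean sum of 25.9 FPKM in A549/DDP cells and 35.0 FPKM in A549 cells. MIR1205 and MIR1206 lie inside 3 and 4 spans, and MIR1208 lies downstream of all of them. A span says nothing of whether the miRNA sequence is within an exon, and the mature miRNAs were not analysed here.

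The other 4 members were near or at 0, and none passed the filter. CASC8 has 4 listed transcripts, 2 of them above 0, and its sum was 0.0703, 0.333 and 0.136 FPKM in the A549/DDP libraries, against 0.158, 0.152 and 0.216 FPKM in the A549 libraries. CASC11, with 1 of 3 transcripts above 0, was at 0, 0.174 and 0.220 FPKM in the A549/DDP libraries, against 0.271, 0.185 and 0.346 FPKM in the A549 libraries. PCAT1, a lncRNA first described in prostate cancer, had 1 of 2 transcripts above 0 and was at 0.0907, 0 and 0.112 FPKM in the A549/DDP libraries, against 0.0527, 0.128 and 0 FPKM in the A549 libraries. The lines overlapped in each of these. CASC21 was listed at 0 in every library except A549/DDP replicate 3, with 0.243 FPKM. Values this low cannot show a difference between the lines.

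In A549/DDP cells the order of the gene sums was PVT1, CCAT1 and CASC19, each above the next in all 3 libraries, and then the other 5 members, which overlapped among themselves. In A549 cells the order was PVT1, CCAT1, MSTRG.48662, CASC19, CASC11, CASC8 and PCAT1, each above the next in all 3 libraries, with CASC21 listed at 0. Across the 3 A549 libraries, however, the ranges of MSTRG.48662 and CASC19 overlapped, as did those of CASC11 and CASC8. MSTRG.48662 stood next above CASC19 in A549 cells and among the members near 0 in A549/DDP cells.

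**Figure D4:**
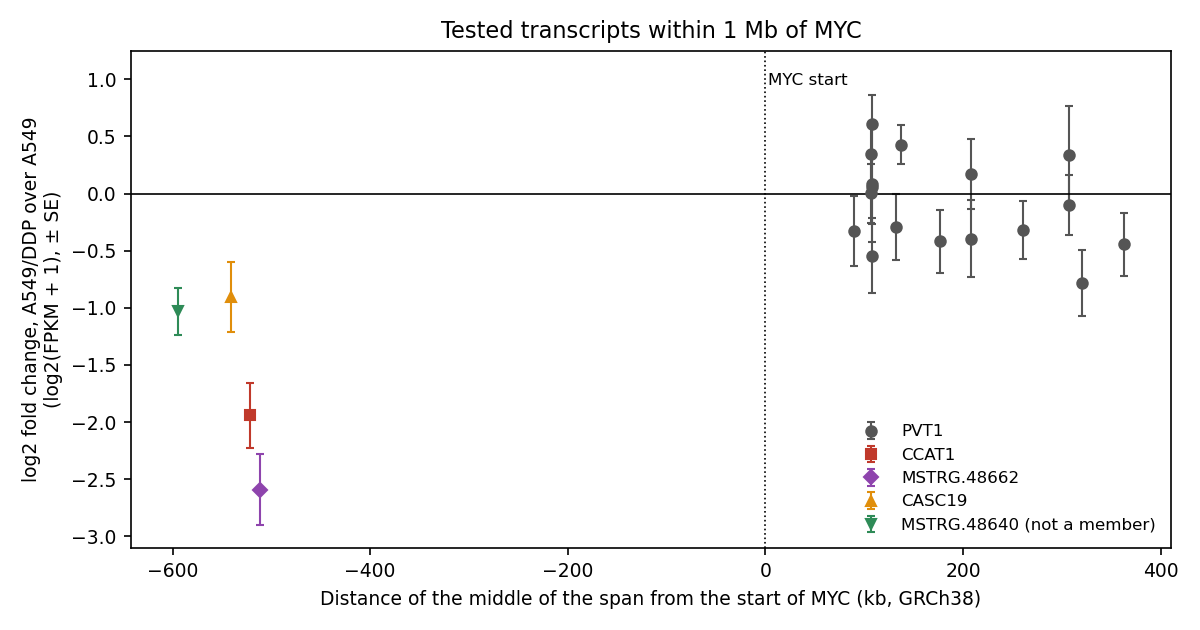
Log2 fold change (A549/DDP over A549, log2(FPKM + 1)) with its standard error for the 21 tested transcripts within 1 Mb of MYC, by the distance of the middle of the span from the start of MYC in kb. The 4 transcripts upstream of MYC lie between -0.90 and -2.59, and the 17 PVT1 transcripts downstream lie between -0.78 and 0.61.

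Of 50 tested transcripts that lie 1 to 5 Mb from MYC, from 23 gene IDs, none was called by limma. That is near the 0.552% called over all tested transcripts. An unadjusted p under 0.05 was found for 10 of the 50, beside 21.7% of all tested transcripts. The median log2 fold change of the 50 was 0.17. Over the rest of chromosome 8, 2 of 752 tested transcripts were called higher and 3 lower, with a median of 0.07. Of all 20663 tested transcripts, 73 were called higher and 41 lower. Of other lncRNAs listed within 1 Mb, PRNCR1 was at 0.263, 0.529 and 0.375 FPKM in the A549/DDP libraries, against 0.103, 0.319 and 0.118 FPKM in the A549 libraries, and CCAT2 was above 0 only in A549/DDP replicate 1, at 0.0405 FPKM. LINC00824 was listed at 0 throughout. MYC itself was not analysed here.

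Genes tied to MYC, most of them elsewhere in the genome, were followed as gene sums. For coding genes these are sums of transcripts expected to be mostly non-coding, and they are not taken to stand for the mRNA. Over all 10591 tested gene sums, 1.39% were called higher, 0.963% were called lower and 27.1% had an unadjusted p under 0.05 by limma, and the counts in the lists below stand beside these shares. Of 16 genes listed as the MYC network, that is, MYC and proteins linked to it, 9 were tested and none was called (limma). Of these 9, 2 had an unadjusted p under 0.05 by limma. Their median log2 fold change was 0.03, beside 0.17 over all gene sums. The 4 of highest level were MLX, MYCBP2, MNT and MGA. MNT, a repressor that competes with MYC for MAX, was at 3.44, 2.36 and 2.43 FPKM in the A549/DDP libraries, against 6.45, 6.42 and 5.79 FPKM in the A549 libraries. It did not overlap between the lines, and its log2 fold change of -0.96 (SE 0.23) missed the threshold (adjusted p = 0.0392, limma). MLX, MYCBP2 and MGA overlapped, with log2 fold changes of -0.14, 0.36 and 0.20.

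Of 30 MYC target genes, 23 were tested, and 1 was called higher and none lower by limma, with 6 at an unadjusted p under 0.05 and a median of 0.31. The called one was HSPD1, a mitochondrial chaperonin, at 21.6, 20.1 and 25.6 FPKM in the A549/DDP libraries, against 4.08, 8.18 and 6.76 FPKM in the A549 libraries. Its groups were far apart (log2 fold change 1.71, SE 0.28, adjusted p = 0.00979, limma), and it is named because it was called. It passed under only 1 of 13 alternatives, and without any 1 library its adjusted p was 0.0129 to 0.0522. The targets of highest level were LDHA, SLC3A2, NPM1 and NOP56, with log2 fold changes of -0.55, -2.92, 0.77 and 0.02 and adjusted p between 0.0632 and 0.963. SLC3A2, a subunit of amino acid transporters, was at 139.8, 10.6 and 11.8 FPKM in the A549/DDP libraries, against 212.0, 226.4 and 187.4 FPKM in the A549 libraries, so that A549/DDP replicate 1 stood between the other A549/DDP libraries and the A549 libraries. Without that library it was called lower (log2 fold change -4.10, adjusted p = 0.00184, limma).

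Among 13 other lncRNAs tied to MYC or its family, 6 were tested, and 1 was called lower and none higher by limma, with 3 at an unadjusted p under 0.05 and a median of -0.64. The 13 include PRNCR1 and CCAT2, which lie within 1 Mb of MYC and were not tested. The called one was CASC15, on another chromosome, at 0.156, 0.0574 and 0.193 FPKM in the A549/DDP libraries, against 2.49, 3.32 and 2.29 FPKM in the A549 libraries. It was near 0 in the resistant line only (log2 fold change -1.70, SE 0.21, adjusted p = 0.00312, limma). CASC15 met the filter through the A549 libraries alone, which set its direction. Its size rests on the pseudocount, with log2 fold changes of -3.60 and -4.35 at pseudocounts of 0.1 and 0.01. Its call held in 2 of 6 fits without a library (adjusted p 0.00866 to 0.0231) and was lost with the replicate number as a block (adjusted p = 0.0143), with a pseudocount of 0.01 (0.0131) and with no filter (0.0168). GAS5, a snoRNA host gene, was at 73.7, 68.0 and 73.5 FPKM in the A549/DDP libraries, against 160.9, 152.6 and 116.6 FPKM in the A549 libraries. SNHG15, another snoRNA host, was at 13.5, 13.2 and 13.6 FPKM in the A549/DDP libraries, against 47.4, 29.6 and 23.3 FPKM in the A549 libraries. Neither overlapped between the lines, but their log2 fold changes of -0.98 and -1.19 did not pass (adjusted p = 0.0288 and 0.0386, limma). DANCR and MINCR, a lncRNA induced by MYC, had log2 fold changes of 0.52 and -0.31 (adjusted p = 0.191 and 0.499).

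Of 7 genes of WNT signalling and looping that bear on the CCAT1 enhancer, 4 were tested and none was called by limma, with 1 at an unadjusted p under 0.05 and a median of 0.28. CTCF, the protein that anchors chromatin loops, was at 1.34, 1.04 and 0.963 FPKM in the A549/DDP libraries, against 0.259, 1.33 and 0.340 FPKM in the A549 libraries, with overlap. TCF7L2, the transcription factor of the WNT pathway, had a log2 fold change of 0.01 (adjusted p = 0.993). CTNNB1, which encodes beta-catenin, had one of 2.10 (adjusted p = 0.0880), with A549 replicate 2 close to the A549/DDP libraries, and was called higher without that library (log2 fold change 3.02, adjusted p = 0.00316, limma). TCF7 had one of 0.14.

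Markers were used to check the label of a lung epithelial line. Their listed transcripts were expected to be mostly non-coding, so the check is weak and the values are not taken to stand for the mRNA. KRT8, an epithelial keratin, was called higher in A549/DDP cells, at 1491 to 2043 FPKM, against 268 to 535 FPKM in A549 cells (log2 fold change 2.11, adjusted p = 0.00423, limma), a call that held in 2 of 6 fits without a library (adjusted p 0.00796 to 0.0240) and not with the block (adjusted p = 0.0133). The call was also lost after quantile normalization (adjusted p = 0.0138), after median-ratio scaling (0.0194), with a pseudocount of 0.01 (0.0164) and with no filter (0.0511). The other tested markers were not called. CDH1, or E-cadherin, was at 7.47, 19.8 and 28.2 FPKM in the A549/DDP libraries, against 4.19, 2.33 and 3.11 FPKM in the A549 libraries, without overlap (adjusted p = 0.0264, limma), and KRT18 averaged 292.6 FPKM in A549/DDP cells and 178.8 FPKM in A549 cells, also without overlap (adjusted p = 0.123). KRT7 and EPCAM overlapped, with means in A549/DDP cells of 0.686 and 0.677 times those in A549 cells. NAPSA reached 0.561 FPKM at most and was not tested. The surfactant genes SFTPA1, SFTPB and SFTPC were listed at 0 in every library and NKX2-1 was not analysed here, so lung identity was not shown by these values. The 7 listed markers of leukocytes, endothelium and fibroblasts summed to 0.365 to 0.851 FPKM in A549/DDP libraries and 0.227 to 0.576 FPKM in A549 libraries, none was tested, and PTPRC, PECAM1 and VWF were at 0. Their part in the results above was not tested.

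Likeness to a member was measured as the root mean square difference of centred log2(FPKM + 1) over the 6 libraries, among all tested gene sums. Near to PVT1 were ENSG00000224356 (0.037) and NCOA7 (0.042). For CCAT1 they were DOCK4 (0.10), SARS1 (0.11) and CASC15 (0.17). The scale compresses low values, and ENSG00000224356 averaged only 0.647 FPKM in A549/DDP cells and 1.04 FPKM in A549 cells. CASC15 averaged 0.135 FPKM in A549/DDP cells and 2.70 FPKM in A549 cells. The A549 mean was 19.9 times the A549/DDP mean for CASC15, against 4.80 times for CCAT1. DOCK4 was at 3.11 ± 0.908 FPKM in A549/DDP cells and 13.3 ± 2.55 FPKM in A549 cells (SD, n = 3 each), levels close to those of CCAT1, and SARS1 was at 7.13 ± 0.882 FPKM in A549/DDP cells and 28.7 ± 1.63 FPKM in A549 cells (SD, n = 3 each). These are descriptions over 6 libraries that fall into 2 lines, so likeness here is mostly a like difference between the lines.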

How the data were processed

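Total RNA of 3 A549/DDP and 3 A549 libraries had been depleted of rRNA and made into strand-keeping libraries. The authors deposited FPKM per transcript in a table for each library. By the methods of the study, reads were trimmed with Trimmomatic, aligned to hg38 with HISAT2, assembled with Cufflinks and quantified with cuffquant and cuffnorm. CASAVA, HISAT2, StringTie and DESeq2 stand in the submitters' processing notes, and which of them made the deposited FPKM is not given in the sources used here, nor is whether the quantification used strand. The libraries of the resistant line carry the spelling A549_DPP in their titles. Low FPKM values reach 1e-06 and did not fall on steps of whole reads (at most 1.23% of pairs of low values shared a bin of ratios), so counts were not recovered and no count test was run.

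Gene IDs were named with GENCODE 44 and RefSeq (GRCh38.p14). Features that reached 0.5 FPKM in 3 or more of the 6 libraries were tested with limma 3.58.1 in R 4.3.3 on log2(FPKM + 1), with a mean-variance trend and Benjamini-Hochberg adjustment over all transcripts or all gene sums tested. Both thresholds of the call (adjusted p 0.01, log2 fold change 1) are those of the study. Shares and ratios were compared by two-sided exact permutation tests, which cannot go below 0.1 with 3 against 3 libraries. The code was tested on simulated data. Other steps used Python 3.11.15 with scipy 1.17.1, pandas 2.3.3 and numpy 2.4.6, and plots were drawn with matplotlib 3.10.9.

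The members and the lists were chosen with earlier results of these data known. Named with values were all tested transcripts of a member (for PVT1 the 6 of highest mean), the tested neighbours within 1 Mb of MYC, the 4 tested genes of highest mean in each list, and the 3 gene sums most like each of the 2 most abundant members. One gene that this rule names is not reported here. Alternatives were pseudocounts of 0.1 and 0.01, no filter (above 0 in at least 1 library), a filter of 2 FPKM, quantile normalization, median-ratio scaling, the replicate number as a block, each library left out in turn, and PVT1 without its highest transcript. Sequences are not shown.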

Additional observations from a re-analysis of the deposited data

How the results depend on the processing

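PVT1, CCAT1, CASC19 and MSTRG.48662 kept a negative log2 fold change of the gene sum under every alternative that gave a value, and PVT1 was never called. CASC19 did not pass the 2 FPKM filter and has no value there. CCAT1 lost its call with no filter (log2 fold change -1.94, adjusted p = 0.0115), with the replicate block (-1.94, adjusted p = 0.0155) and without any 1 library (-2.05 to -1.78). MSTRG.48662 lost its call with a pseudocount of 0.01 (-6.95), with no filter (-2.59) and without some single libraries (-2.91 to -2.42 over all 6). The sum over the GENCODE 44 span of CASC19, chosen after seeing the data, was -2.25 and called, against -0.90 for its own transcript. Member gene sums called lower were 2, and 1 with a pseudocount of 0.01, 0 with no filter, 1 with the replicate block and 0 to 1 without a library. Member transcripts called lower were 1, and 0 with a pseudocount of 0.01, 0 with no filter, 0 with the replicate block and 0 without any 1 library, but 2 with the 2 FPKM filter and 2 with median-ratio scaling, where CCAT1 joined (adjusted p = 0.00991 after that scaling). The PVT1 transcript chr8:127795820-127890960 turned to -0.19 with median-ratio scaling and ranged from -0.18 to 0.23 without single libraries. Gene sums near no difference also changed sign. MLX was at -0.34 to 0.15 without single libraries. NOP56 was at -0.23 with median-ratio scaling and at -0.078 to 0.10 without single libraries. TCF7L2 was at -0.0063 and -0.0081 with pseudocounts of 0.1 and 0.01, -0.15 after quantile normalization, -0.19 with median-ratio scaling and -0.24 to 0.19 without single libraries. TCF7 was at -0.062 after quantile normalization and -0.059 to 0.53 without single libraries. Over the 20 tested member transcripts and all alternatives, 223 of 253 values kept direction and call, 9 lost the call, 2 gained it and 19 changed sign, all of these in PVT1 transcripts that were never called.

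Over all transcripts 73 were called higher, and 4 with a pseudocount of 0.01, 3 with no filter, 0 with the replicate block and 0 to 2 without a library. Those called lower were 41, and 2, 1, 1 and 1 to 5 in that order, with 62 at the 2 FPKM filter. Among gene sums 147 were called higher, and 49, 31, 36 and 34 to 68 in that order, with 94 after median-ratio scaling, and 102 were called lower, and 41, 28, 35 and 23 to 60. The split of higher against lower gene sums was 94 to 118 after median-ratio scaling and 105 to 123 after quantile normalization, against 147 to 102 as deposited. Leaving out a library reduces the samples and thereby the power of the test. Otherwise the cause was not tested.

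Replicate numbers showed no general pairing of the libraries. The deviations of same-numbered libraries from their line means had correlations of 0.01, -0.03 and -0.01. Those of libraries with different numbers were between -0.03 and 0.04. Such correlations cannot show that no single gene follows the replicate number. The depth behind the values is unknown, which limits what can be said of the members under 0.5 FPKM.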
